A study of Drosophila melanogaster with 12 samples.

Results

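The levels of 6 genes that receive or clear chemical signals between neurons were followed in the heads of flies fed a convulsant drug. The genes are nAChRbeta1, Nmdar1, GluClalpha, 5-HT1A, 5-HT2A and Eaat2. They were found by gene symbol or synonym in the annotation of the array. The rule uses no measured value, but the set was chosen with earlier results of these data known. Each of the 6 genes was represented by 1 feature, the mean of 2 adjacent spots of the same cDNA, among 7558 features of 6793 genes that had 1 gene symbol.

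All flies were unmated adult males of the wild-type strain Oregon-R, 3 to 4 days old at the start, kept at 30 per vial, and RNA was pooled from whole heads. Control flies stayed on normal food (NF). Treated flies ate NF that contained 8 mg per ml pentylenetetrazole (PTZ), a convulsant that blocks chloride channels gated by GABA. The study saw no seizure-like behavior in flies kept on this dose. NF and PTZ heads were hybridised together on 2-colour cDNA arrays, with 4 arrays at each of 3 times, after 12 hrs of PTZ, on its 2nd day and on its 7th day. The study's methods call the 4 replicates of a time point biological. Arrays of 0 hr were not analysed here.

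Acetylcholine is the main fast excitatory transmitter of the insect brain, and its nicotinic receptors are pentamers of alpha and beta subunits. Glutamate excites through NMDA-type receptors and other cation channels, while in invertebrates it also inhibits through glutamate-gated chloride channels, which are related to the GABA-gated channels that PTZ blocks. Serotonin acts in flies through G protein-coupled receptors of several classes, and released amino acid transmitters are taken up again by transporters of the EAAT family.

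The measured value was the log2 ratio of the 2 dyes, red (Cy5) and green (Cy3), on each array, as normalized and filtered by the authors. In replicates 1 and 2 the PTZ sample was labelled with Cy5. The value there was taken as red over green, so that a negative value meant less transcript in PTZ flies (forward arrays). In replicates 3 and 4 the PTZ sample carried Cy3 (swapped arrays). No source used here says whether the authors had already turned these arrays to PTZ over NF. The 4-array means are therefore given in 2 readings, turned (the sign of both swapped arrays reversed) and as deposited. The forward arrays have the same sign in both, but there a difference between the dyes and an effect of PTZ cannot be told apart. GEO's labels of replicates 3 and 4 at 12 hrs and of replicate 2 of the 2nd day contradict themselves on treatment or dye, and the orientation of these arrays was taken from their titles, treatment protocols and the methods. The replicates of one orientation correlated at 0.727 on the forward and 0.166 on the swapped arrays of the 2nd day across features. The 2 forward arrays correlated at 0.302 and 0.299 with swapped replicate 3, but at -0.111 and -0.129 with swapped replicate 4.

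Between 3088 and 9051 of 13824 features had a value on an array, and the median feature was measured on 4 of the 12 arrays. The genes described here were measured more often. GluClalpha had a value on 11 arrays, nAChRbeta1, 5-HT1A, 5-HT2A and Eaat2 on 10 each, and Nmdar1 on 5. The missing values fell mainly on the 7th day, where replicate 2 held none of the 6 genes, replicate 4 held GluClalpha alone, and the median of replicate 4 lay at -0.64. Both spots of a gene were present wherever it was measured. Their median distance was 0.138 over all features, between 0.051 and 0.114 for 5 of the genes, and 0.36 for Nmdar1, whose values are thus the least precise. The spots give a ratio between 2 pools and no level of a gene, so that the genes are not ranked by abundance.

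The lowest deposited value of each of GluClalpha, both serotonin receptors and Eaat2 lay on forward replicate 1 of the 2nd day. On the 2 forward arrays of that day 4 of the 6 genes were lower in PTZ heads past the threshold (limma, adjusted p under 0.05). The others, nAChRbeta1 and Nmdar1, did not pass. Of all 4964 features tested on these 2 arrays, 33.3% were lower and 7.43% higher, so low values were common there. With each array centred on its median these shares were 15.1% and 15.2%, and the same 4 genes were lower (adjusted p between 0.00222 and 0.0173). At 12 hrs 0 of the 6 genes passed on the forward arrays, where 1.3% of 3938 features were lower and 1.42% higher (2.21% and 0.533% after centring). In pooled heads, fewer cells that express a gene and less RNA per cell cannot be told apart.

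**Figure D1:**
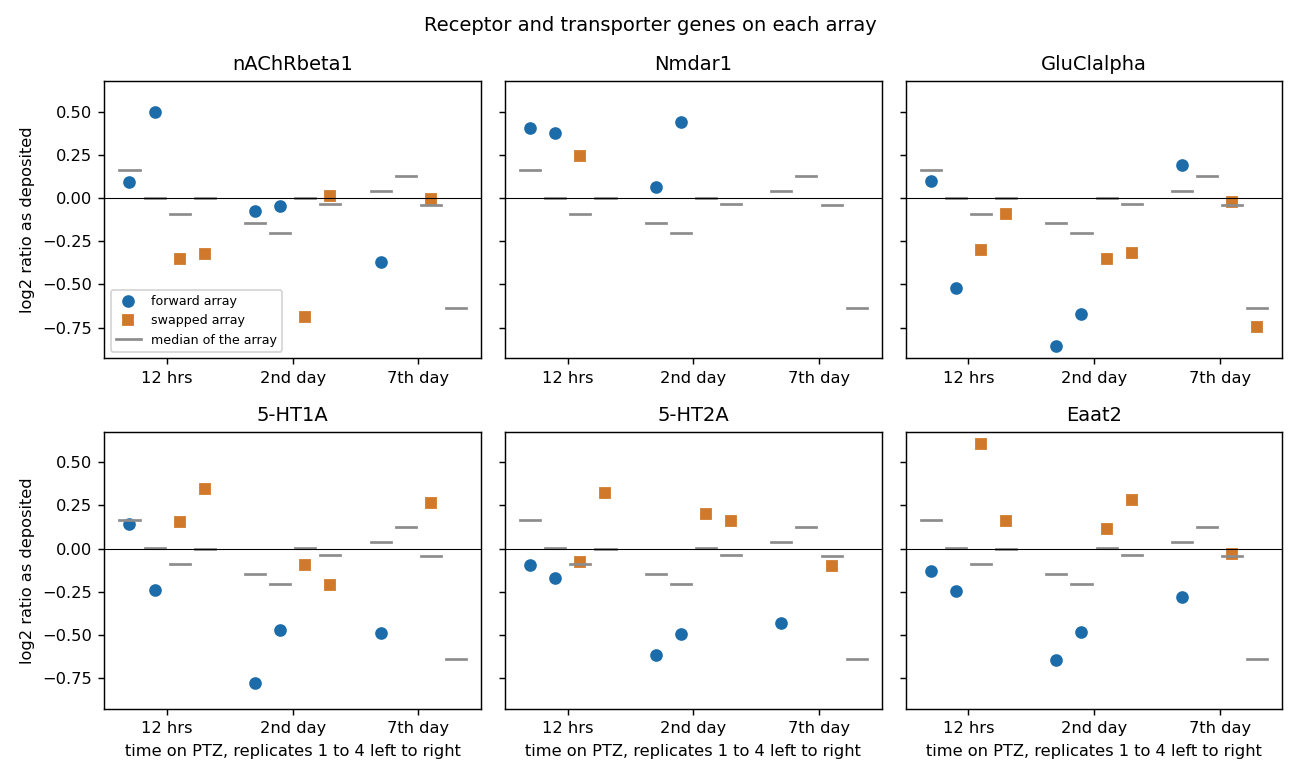
Log2 ratio as deposited (y axis) of each gene on each of the 12 arrays (x axis, replicates 1 to 4 within each time point), with circles for forward and squares for swapped arrays and a grey line at the median of all features of that array. GluClalpha, 5-HT1A, 5-HT2A and Eaat2 lie below the array medians on both forward arrays of the 2nd day, whereas on the swapped arrays of that day the first 2 lie below 0 and the last 2 above 0.

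GluClalpha encodes the glutamate-gated chloride channel, an inhibitory receptor. Its 2nd day log2 ratios were -0.85 and -0.67 on the forward arrays and -0.35 and -0.32 on the swapped arrays as deposited. All 4 values were negative, and the forward values were the more negative ones. On the forward arrays the mean was -0.76 ± 0.13 (SD, n = 2), a PTZ to NF ratio of 0.589, with an SE of 0.13 and an adjusted p of 4.04e-07. Only 1.87% and 5.36% of the features of these arrays had lower values. Over 4 arrays as deposited the mean was -0.55 ± 0.26 (SD, n = 4), which did not pass in limma (adjusted p = 0.115) although all 4 arrays were negative. In that reading 0.0189% of 5279 features, 1 of them, were lower past the threshold. With the swapped arrays turned the mean was -0.21 ± 0.64 (SD, n = 4, adjusted p = 0.701), with 2 arrays on each side of 0.

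At 12 hrs the values of GluClalpha were 0.10 and -0.52 on the forward arrays and -0.30 and -0.092 on the swapped arrays. The forward replicates stood on opposite sides of 0, and the mean lay at -0.0076 ± 0.36 turned and at -0.20 ± 0.27 as deposited (SD, n = 4), with adjusted p-values of 0.981 and 0.997. On the 7th day GluClalpha was measured at 0.19 on forward replicate 1 and at -0.0215 and -0.75 on the swapped arrays. The lowest of these belonged to replicate 4 and lay 0.11 below the median of that array. The 3-array mean was 0.32 ± 0.38 turned (adjusted p = 0.964) and -0.19 ± 0.49 as deposited (adjusted p = 0.824), within the spread of the arrays in both readings. The 4-array fit of the 7th day was also run on simulated data, with independent noise at the spread of the turned values. It recovered 1% of changes of 0.5 on the log2 scale and 66% of changes of 1. GluClalpha was the only one of the 6 genes with enough values for a test on that day, when 0 of 4316 features passed turned (at an unadjusted p under 0.05, 19 were lower and 79 higher) and, as deposited, 0.626% were lower and 0.0463% higher.

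5-HT1A encodes a serotonin receptor of the class that lowers cyclic AMP. Its 2nd day values were -0.78 and -0.47 on the forward arrays and -0.095 and -0.21 on the swapped arrays. As for GluClalpha, the 4 deposited values were negative and the forward values did not overlap the swapped ones. The forward mean was -0.62 ± 0.22 (SD, n = 2), a ratio of 0.649 (adjusted p = 4e-05). The 4-array mean was -0.39 ± 0.30 as deposited (adjusted p = 0.194) and -0.24 ± 0.47 turned (adjusted p = 0.613). At 12 hrs the values were 0.14 and -0.24 on the forward and 0.15 and 0.34 on the swapped arrays, with no common sign in either reading. These gave -0.15 ± 0.21 turned (adjusted p = 0.472) and 0.10 ± 0.24 as deposited (SD, n = 4, adjusted p = 0.997). On the 7th day forward replicate 1 had -0.49, with its 2 spots 0.513 apart, and swapped replicate 3 had 0.26. That array of the swapped pair placed 5-HT1A above 93.3% of its features, so the deposited signs of the 2 arrays were opposite.

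5-HT2A encodes the serotonin receptor of the class coupled to phospholipase C. Its 2nd day values were -0.62 and -0.50 on the forward arrays, and 0.20 and 0.16 on the swapped arrays as deposited. The forward and swapped values lay on opposite sides of 0, unlike those of 5-HT1A. The forward mean was -0.56 ± 0.09 (SD, n = 2), a ratio of 0.68 (adjusted p = 0.000288). Turned, all 4 arrays were negative with a mean of -0.37 ± 0.22 (SD, n = 4, adjusted p = 0.497), and as deposited the mean was -0.19 ± 0.43 (adjusted p = 0.476). The turned mean had an unadjusted p of 0.013 and did not pass over 5279 features, of which 0 passed while 7.5% were lower at an unadjusted p under 0.05. At 12 hrs the values were -0.097 and -0.17 on the forward and -0.079 and 0.32 on the swapped arrays, and on the 7th day -0.43 on forward replicate 1 and -0.10 on swapped replicate 3. All 5 forward values of 5-HT2A were negative. The 12 hrs means were -0.13 ± 0.17 turned (adjusted p = 0.504) and -0.0057 ± 0.22 as deposited (adjusted p = 0.997).

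Eaat2 belongs to the family of glutamate transporters, although in flies the Eaat2 protein is known to carry aspartate and taurine. On the 2nd day it had -0.65 and -0.48 on the forward arrays, and 0.12 and 0.28 on the swapped arrays as deposited. Here too forward and swapped values stood on opposite sides of 0. The forward mean was -0.56 ± 0.12 (SD, n = 2), a ratio of 0.676 (adjusted p = 0.000235). The turned mean was -0.38 ± 0.23 (SD, n = 4, 4 of 4 negative, adjusted p = 0.497), and as deposited it was -0.18 ± 0.45 (adjusted p = 0.5). At 12 hrs Eaat2 had the same split, with -0.13 and -0.25 on the forward and 0.60 and 0.16 on the swapped arrays. The value of 0.60, on swapped replicate 3, was the mean of spots at 0.161 and 1.048, the widest spot pair among the 6 genes. Turned, the 12 hrs mean was -0.29 ± 0.22 (SD, n = 4, 4 of 4 negative), which had an unadjusted p of 0.0266 and an adjusted p of 0.293. As deposited it was 0.10 ± 0.38 (adjusted p = 0.997). On the 7th day the values were -0.28 on forward replicate 1 and -0.0285 on swapped replicate 3, so that the 5 forward values of Eaat2 were all negative.

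nAChRbeta1 encodes a beta subunit of nicotinic acetylcholine receptors, a family that includes the targets of neonicotinoid insecticides. At 12 hrs its values were 0.096 and 0.50 on the forward arrays and -0.35 and -0.32 on the swapped arrays. Forward and swapped values lay on opposite sides of 0, in the reverse order to Eaat2. The turned mean was 0.32 ± 0.17 (SD, n = 4, 4 of 4 positive), with an unadjusted p of 0.0111 and an adjusted p of 0.272. Among 4642 features 0 passed in that reading, and 11.9% were higher at an unadjusted p under 0.05. The deposited mean was -0.0196 ± 0.40 (adjusted p = 0.997). The 2nd day values of nAChRbeta1 were -0.078 and -0.0485 on the forward arrays, -0.69 on swapped replicate 3 and 0.013 on swapped replicate 4. A single array thus stood apart, and both of its spots were low, at -0.736 and -0.644. The forward mean was -0.063 ± 0.02 (SD, n = 2, adjusted p = 0.727), above the medians of both arrays (-0.144 and -0.202). The 4-array means were 0.14 ± 0.37 turned (adjusted p = 0.725) and -0.20 ± 0.33 as deposited (adjusted p = 0.38). On the 7th day the values were -0.37 on forward replicate 1 and -0.0055 on swapped replicate 3.

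Nmdar1 encodes the subunit that every NMDA-type glutamate receptor of the fly contains. Its 12 hrs values were 0.41 and 0.37 on the forward arrays and 0.24 on swapped replicate 3. On the 2nd day it had 0.064 and 0.44 on the forward arrays, with spots 0.429 and 0.55 apart. All 5 deposited values were positive, and on the 7th day Nmdar1 had no value. The forward means were 0.39 ± 0.02 at 12 hrs (SD, n = 2, adjusted p = 0.155) and 0.25 ± 0.27 on the 2nd day (SD, n = 2, adjusted p = 0.119). At 12 hrs the 3-array mean was 0.34 ± 0.09 as deposited (unadjusted p = 0.0301, adjusted p = 0.997) and 0.18 ± 0.37 turned (adjusted p = 0.529). Whether Nmdar1 passed on the 2nd day depended on the centring of arrays. With each array centred on its median the forward mean was 0.43 and passed (adjusted p = 0.02), while 15.2% of features then did so in this direction and 15.1% in the other.

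A fit with a second coefficient for dye orientation splits the 4 values into a component whose sign follows the orientation and a component that is the same in both. The first, the following component, estimates the effect of PTZ if the swapped arrays are turned. The second, the constant component, estimates that effect if they are read as deposited. On the 2nd day GluClalpha, 5-HT1A, 5-HT2A and Eaat2 were negative in both components, and which of them passed differed between the components. In the following component 5-HT2A (-0.37, adjusted p = 0.00251) and Eaat2 (-0.38, adjusted p = 0.00196) passed, and 5-HT1A (-0.24, adjusted p = 0.0513) and GluClalpha (-0.21, adjusted p = 0.0714) did not. In the constant component GluClalpha (-0.55, adjusted p = 1.25e-05) and 5-HT1A (-0.39, adjusted p = 0.00119) passed, and 5-HT2A (-0.19, adjusted p = 0.0889) and Eaat2 (-0.18, adjusted p = 0.102) did not. Of 5279 features, 14.1% were lower and 4.43% higher in the first, and 23.5% lower and 5.7% higher in the second. The component that does not estimate the effect of PTZ in a reading would hold any effect of the dyes in it. Forward and swapped arrays were always different replicates, so a difference between these replicates or their slides would enter both components. Its part was not tested. From these arrays PTZ and dye cannot be told apart without knowing the direction. For nAChRbeta1 neither component passed on the 2nd day (adjusted p = 0.319 and 0.0985). At 12 hrs no gene passed in either component, and 0 of 4642 features did in limma (at an unadjusted p under 0.05, 181 were lower and 566 higher in the following and 128 and 148 in the constant component).

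**Figure D2:**
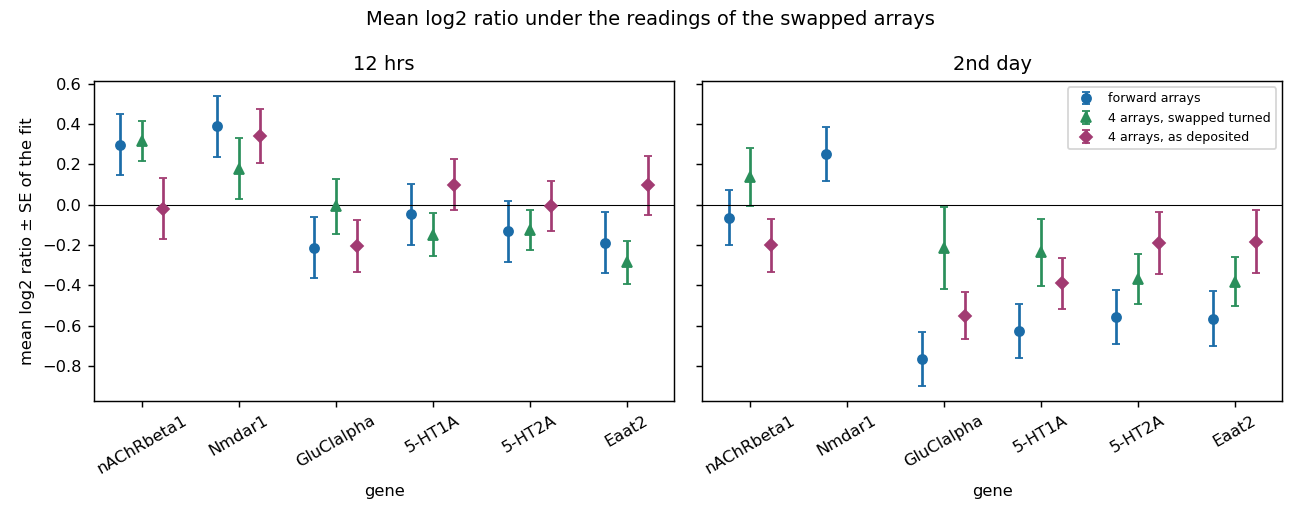
Mean log2 ratio (y axis) with the SE of the limma fit for each gene (x axis) in panels for 12 hrs and the 2nd day. Shown are the forward arrays (circles), 4 arrays with the swapped arrays turned (triangles) and 4 arrays as deposited (diamonds). On the 2nd day GluClalpha moves from -0.55 as deposited to -0.21 turned, while Eaat2 moves from -0.18 to -0.38. Nmdar1 had too few values for a 4-array mean on that day.

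Values also moved with those of neighbouring rows. On each of the 12 arrays a feature's value correlated with the median of its neighbours, with Spearman's rho between 0.251 and 0.594 across features. Neighbours were those of the 20 features nearest in row order that had a value on the array. Only 5603 and 5896 of 13824 features had a value on the 2nd day's forward arrays. The number of neighbours behind each median was not counted. Row order stands in for position on the slide, whose layout was not used here. The rho was 0.592 and 0.594 on the 2nd day's forward arrays. Around 5-HT2A these medians were -0.47 and -0.48, close to its own -0.62 and -0.50. Around Eaat2 they were -0.60 and -0.55, against its own -0.65 and -0.48. Neither gene therefore stood far from its neighbours in this order. Around GluClalpha they were 0.061 and -0.22, and around 5-HT1A -0.13 and 0.084, so that both genes lay well below their neighbours on both arrays.

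With the median of the neighbours subtracted, a setting chosen after the data were seen, GluClalpha kept -0.68 (adjusted p = 0.0468) and 5-HT1A -0.60 (adjusted p = 0.0339) on the 2nd day's forward arrays. 5-HT2A had -0.081 (adjusted p = 0.654) and Eaat2 0.0096 (adjusted p = 0.964), and neither passed. In this setting 2.85% of 4950 features were lower and 1.9% higher. At 12 hrs the neighbours of Eaat2 had its sign on all 4 arrays, with medians of -0.31 and -0.27 on the forward and 0.23 and 0.24 on the swapped arrays, although Eaat2 itself lay 0.378 above them on swapped replicate 3. Nmdar1 at 0.44 on forward replicate 2 of the 2nd day had neighbours at 0.44, and its forward mean of that day turned to -0.098 (adjusted p = 0.599). nAChRbeta1 at 12 hrs had neighbours of the same sign on all 4 arrays (0.063, 0.12, -0.29 and -0.19). The part of slide position in the values of these 4 genes was not tested otherwise.

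**Figure D3:**
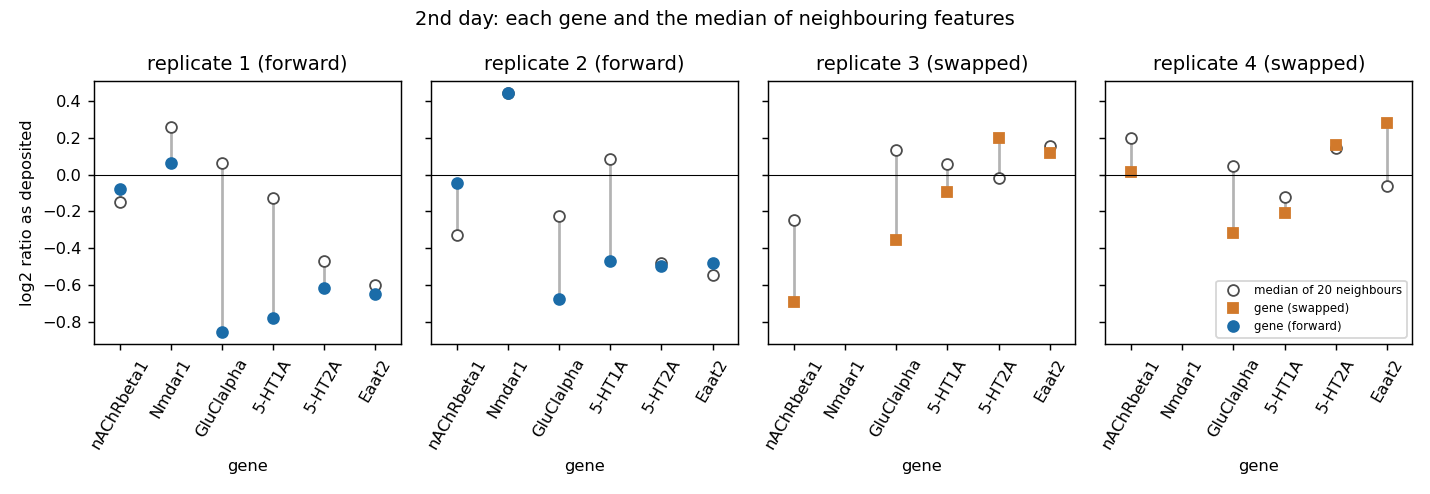
Log2 ratio as deposited (y axis) of each gene (filled symbols, x axis) and the median of its neighbours (open circles) on the 4 arrays of the 2nd day. Neighbours are those of the 20 nearest features in row order that had a value. On the forward arrays GluClalpha and 5-HT1A lie far below their neighbours, and 5-HT2A and Eaat2 lie beside neighbours at -0.47 to -0.60.

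The forward calls rested on both arrays. With replicate 2 of the 2nd day left out, the array with a contradictory label, the values of replicate 1 alone had adjusted p-values of 0.0845 for GluClalpha, 0.118 for 5-HT1A, 0.2 for Eaat2 and 0.229 for 5-HT2A, in a fit over the remaining forward arrays that assumes a lone array to vary like the others. With replicate 1 left out the lowest was 0.193, for GluClalpha. The 2nd day means over the other 3 arrays without replicate 2 were -0.51 for GluClalpha and -0.36 for 5-HT1A as deposited, and -0.33 for 5-HT2A and -0.35 for Eaat2 turned, and none passed. At 12 hrs, leaving out the replicates 3 and 4 with contradictory labels leaves the forward means, which were 0.30 for nAChRbeta1, -0.21 for GluClalpha, -0.0475 for 5-HT1A, -0.13 for 5-HT2A and -0.19 for Eaat2, with adjusted p-values from 0.314 to 0.9. Over 4 arrays as deposited GluClalpha was lower past the threshold without replicate 4, at -0.63 (adjusted p = 0.0472), and in a one-class SAM test with all 16 sign flips, the kind of test the study used (q = 0.0327). Calls were then more common over all features too. SAM called 154 of 5279 features in that reading, and fits without 1 array called from 0 to 114. With 4 arrays an exact sign-flip permutation test cannot go below a two-sided p of 0.125. In the forward fit of the 2nd day the spread of single features added nothing to a common SD of 0.19, so that its p-values followed the size of the mean alone.

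No gene differed between time points past the threshold. The contrasts treated the arrays as unpaired, and those on the forward arrays were not run with a replicate block. On the forward arrays the 2nd day lay below 12 hrs by -0.58 for 5-HT1A (SE 0.21, unadjusted p = 0.0188, adjusted p = 0.167), by -0.55 for GluClalpha (SE 0.23, adjusted p = 0.204) and by -0.42 for 5-HT2A (SE 0.19, adjusted p = 0.22). Eaat2 differed by -0.38 (adjusted p = 0.263), nAChRbeta1 by -0.36 (adjusted p = 0.301) and Nmdar1 by -0.14 (adjusted p = 0.681). The 6 differences were negative, and so were most of the array. In that contrast 0.0559% of 3581 features passed as lower and 21.3% had an unadjusted p under 0.05. The call of 4 genes on the 2nd day and of none at 12 hrs is thus not a shown difference between these times. Over all arrays the differences of 2nd day and 12 hrs were between -0.24 (5-HT2A) and -0.089 (5-HT1A) turned, with adjusted p-values of 0.752 or more. As deposited they were between -0.49 (5-HT1A, unadjusted p = 0.0345) and -0.18 (nAChRbeta1), GluClalpha having -0.35, with an adjusted p of 0.999 for each. GluClalpha did not pass between the later times either, its 7th day mean lying above the 2nd day by 0.53 turned (SE 0.31, adjusted p = 0.509) and by 0.36 as deposited (adjusted p = 0.657), in contrasts where 0.0403% of 2483 features, 1 of them, passed in each reading.

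Other receptors and transporters of the fly brain were low on the same forward arrays. In 5 lists of 66 acetylcholine, glutamate, GABA and histamine, and amine receptors and transmitter transporters, 60 genes were not among the 6, 25 of those had a feature, and 9 could be tested on the 2nd day. Of the 9, 6 were lower and 0 higher, where 33.3% of all features were lower. Their median was -0.38 against -0.20 over all features tested, 74.9% of which were negative. After centring 4 of the 9 were lower, where 15.1% of all features were, and 6 were negative. DopEcR, a receptor for dopamine and ecdysteroids, had -1.08 and -0.89 and a mean of -0.99 (adjusted p = 3.78e-11). ChT, the choline transporter, had -0.75 and -0.57 (mean -0.66, adjusted p = 1.36e-05), and CarT, a transporter of carcinine, a histamine conjugate, had -0.56 and -0.58 (mean -0.57, adjusted p = 0.000206). Lcch3, a GABA receptor subunit and thus of the family that PTZ blocks, had -0.50 and -0.46 (mean -0.48, adjusted p = 0.002). GluRIIA, a glutamate receptor subunit of the neuromuscular junction, had a mean of -0.38 (adjusted p = 0.0166), and ine, a member of the family of sodium-coupled transmitter transporters, of -0.33 (adjusted p = 0.0352). The octopamine receptors Octbeta1R and Octbeta2R had -0.15 and -0.070, and the dopamine transporter DAT had 0.10, with none past the threshold. A second feature of DopEcR was as low (-0.95 and -0.93), whereas a second feature of ine was not (-0.034 and 0.21).

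Counted by list with the 6 genes included, 4 of 5 transmitter transporters, 3 of 5 amine receptors, 2 of 3 glutamate receptors and 1 of 1 GABA and histamine receptors were lower on the 2nd day's forward arrays, and 0 of 1 acetylcholine receptors, beside 33.3% of all features. None in these lists was higher. After centring, 3 of 5 transporters were lower, 1 of 3 glutamate receptors was lower and 1, Nmdar1, higher, and the other lists kept their counts. Of all features 15.1% were then lower and 15.2% higher. With the neighbours subtracted, 1 of the other 9 was lower, DopEcR at -0.57 (adjusted p = 0.0384), beside 2.85% of all features. In the following component DopEcR (-0.45), ChT (-0.34) and CarT (-0.34) were lower, beside 14.1% of all features. In the constant component DopEcR (-0.54), ChT (-0.32), GluRIIA (-0.27) and ine (-0.23) were lower, beside 23.5%. DopEcR and ChT were thus lower past the threshold in both components. The 2 components add up to the forward mean, so that a very low forward mean favours this. The share of all features past the threshold in both was not counted, and these 2 genes are therefore not set apart by it. Over 4 arrays without the dye coefficient neither gene passed in limma. Adjusted p-values were then 0.531 turned and 0.194 as deposited for DopEcR, and 0.525 and 0.244 for ChT. At 12 hrs 0 of 7 others passed on the forward arrays, where 1.3% of all features were lower and 1.42% higher. The smallest p-values of these 7 in limma were those of DopEcR (-0.33, unadjusted p = 0.0309) and ChT (-0.32, unadjusted p = 0.0321). On the 7th day 0 of 6 passed. There 0 of all 2944 features passed on the forward arrays (27 lower and 38 higher with an unadjusted p below 0.05), so that the count says nothing particular about these genes.

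**Figure D4:**
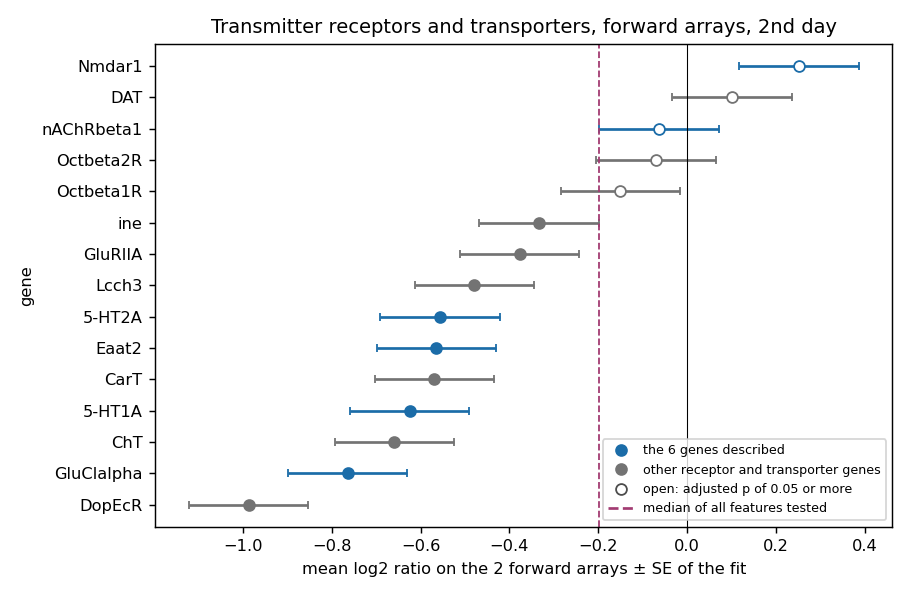
Mean log2 ratio on both 2nd day forward arrays (x axis) with the SE of the limma fit for the receptor and transporter genes tested (y axis), with the 6 genes described in blue, others in grey, filled where the adjusted p was under 0.05, and a dashed line at the median of all features (-0.20). DopEcR is lowest at -0.99, followed by GluClalpha at -0.76, and nAChRbeta1, Octbeta2R, DAT and Nmdar1 lie above -0.10.

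Markers of cell types of the head moved on these 2 arrays as well. Beside 33.3% of all features, lower were 1 of 2 tested neuronal markers (of 12 listed, 3 had a feature; median -0.43), 3 of 4 glial markers (of 12, 9 had a feature; median -0.40) and 4 of 7 markers of the fat body of the head (of 11, 10 had a feature; median -0.75). None of 6 tested photoreceptor markers, of 8 with a feature, was lower and 1 was higher (median -0.070). None of 5 tested muscle markers, of 6 with a feature, passed (median -0.079). After centring, 1 glial marker was lower and 1 higher of 4, beside 15.1% of all features lower and 15.2% higher. The neuronal and fat body counts of lower markers stayed at 1 and 4. With the neighbours subtracted, 0 of 2 neuronal, 0 of 3 glial and 3 of 7 fat body markers were lower, beside 2.85% of all features. The counts of 0 among so few markers were near that share. The neuronal markers, with only 2 features on each array, had a median of -0.29 and -0.57 on the 2 forward arrays. On the swapped arrays it was 0.052 and 0.044, and these were the signs that 5-HT2A and Eaat2 had. The glial markers had -0.36 and -0.29 on the forward and -0.17 and -0.38 on the swapped arrays, as did GluClalpha and 5-HT1A in sign. The fat body markers had the same signs as the glial markers, with -0.60 and -1.22, and -0.25 and -0.098. These signs were not shared at 12 hrs. The neuronal medians were then -0.0265 and -0.0138 on the forward and -0.13 and -0.0325 on the swapped arrays. Neither 5-HT2A nor Eaat2 had these signs on all 4 arrays. The glial medians were 0.019 and 0.0785, and -0.0695 and -0.152, and neither GluClalpha nor 5-HT1A had these signs on all 4 arrays. As ratios hold no levels, the presence of each cell type in the samples could not be read from them, and the part of the makeup of the heads in the values of the 6 genes was not tested.

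The likeness of patterns was measured as the cosine of the deposited ratios over shared arrays, after subtraction of the array medians, a measure that does not depend on the direction of the swapped arrays. Nmdar1, with 5 arrays, had too few for this measure. The likest pairs among the other 5 genes were 5-HT1A and 5-HT2A (0.751), 5-HT2A and Eaat2 (0.742) and 5-HT1A and Eaat2 (0.68), each over 10 arrays. GluClalpha had 0.524 with 5-HT1A, 0.343 with 5-HT2A and 0.24 with Eaat2, and nAChRbeta1 was between -0.296 and -0.0776 with these 4 genes. Many genes had values above those pairs. Among 2548 named genes with at least 8 shared arrays, the top 1 percent lay above 0.843 for 5-HT1A, 0.872 for 5-HT2A and 0.825 for Eaat2. Closest to 5-HT1A were CG17144 (0.957), Tob (0.926) and CG13907 (0.91), and closest to 5-HT2A were CG31099 (0.946), Ythdf (0.943) and Edc3 (0.941). Eaat2 was likest to upSET (0.923), Mes2 (0.919) and slmb (0.905). GluClalpha, among 2650 genes, was likest to Pde8 (0.944), Ogdh (0.933) and Phae1 (0.932), over 8 or 9 arrays, and nAChRbeta1 to VhaAC45 (0.893), CG1572 (0.866) and CG30197 (0.857). Arrays share samples, dyes and scans, so these values describe the arrays and carry no test.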

How the data were processed

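The authors scanned 12 arrays with GenePix and deposited log2 ratios of the 2 dyes, normalized by ratio in Acuity with dim spots ignored. By their methods, normalized values were then filtered for saturated pixels, flags, regression fit and signal-to-noise. The centre of the values is that of their normalization, and no source used here gives the direction on swapped arrays. Each of the 12 value columns belonged to 1 sample, and medians per array lay between -0.642 and 0.162 over spots. The mean of 2 adjacent spots was taken for each of 13824 features. Names came from the annotation of the array (1 symbol for 7558 features, several for 51, none for 6215), and 7447 had a gene ID with a current symbol in the Release 6 annotation.

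Features measured on 3 or 4 arrays of a time point (for forward fits, on both) were tested with limma (version 3.58.1, in R 4.3.3), two-sided, with Benjamini-Hochberg adjustment over all features and a threshold of 0.05, separately for each time point. Contrasts of time points came from 1 joint fit. The p-values rest on the spread between arrays, which limma draws towards a value common to all features, and the number of arrays limits the precision. In 3 fits only the common SD was used. These were the forward fits of 12 hrs (SD 0.21) and the 2nd day (0.19) and the deposited fit of the 7th day (0.43). There a gene's own spread did not enter its p-value. In the dye fit of the 2nd day the SEs of the genes tested were also close, from 0.085 to 0.094. On simulated data for the forward arrays of the 2nd day, 70% of 200 changes of 0.5 on the log2 scale and 100% of changes of 1 were recovered among 4964 features. At 12 hrs the shares were 27.5% and 100% among 3938, and on the 7th day 0% and 63.5% among 2944. Over 4 arrays of the 7th day they were 1% and 66% among 4316. The simulations used independent normal noise at the spread of the turned values. They held no shifts of whole arrays and no likeness of neighbouring rows, so the shares may not hold for the real arrays.

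Same-numbered arrays of 12 hrs and the 2nd day correlated in their deviations from the group means at 0.104 to 0.205 across features, so that the numbers were taken to pair these 2 times, although arrays of 1 number also share the dye orientation. With the 7th day they correlated at -0.0635 to 0.179, and that day was not taken as paired. The contrasts of 12 hrs and the 2nd day given above left the pairing out. A replicate block was an alternative over all arrays, turned.

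The 6 genes, the 5 lists of receptors and transporters and the 5 of cell type markers were chosen with earlier results of these data known. Named are the 6 genes, members of the lists past the threshold or with the smallest p on the forward arrays, and the 3 genes of highest cosine. Alternatives were the other reading, a dye coefficient, centring and scaling of arrays, single spots, averaging per gene, other minimum numbers of arrays, 1 fit over all arrays, SAM, blocking by replicate number and omission of each array in turn. Subtraction of the median of neighbours and omission of spots over 6 in size were added after the data were seen. The neighbours were those of the 20 features nearest in row order that had a value.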

Additional observations from a re-analysis of the deposited data

Results flagged for a closer look

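On the 2nd day the value of nAChRbeta1 on swapped replicate 3 (-0.69 as deposited) lay far from the other 3 arrays (-0.078, -0.0485 and 0.013). Its gap to the nearest of them was 0.871 of the whole range as deposited and 0.915 with the swapped arrays turned, above Dixon's 95% critical value for 4 samples. Only 0.363% of the features of that array were lower, and the median of its neighbouring features was -0.25. Both readings hold the same array, so that this is 1 observation. Chance alone gives such a gap in about 1 of 20 groups, and 20 groups, 10 in each reading, were looked at.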

How the results depend on the processing

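The forward calls of GluClalpha and 5-HT1A on the 2nd day held under centring, single spots, averaging per gene, subtraction of neighbours, omission of large ratios and 1 fit over the 6 forward arrays, and those of 5-HT2A and Eaat2 under all of these but the subtraction of neighbours. None of the 4 held when either array was left out. The direction of the 4-array means depended on the reading for GluClalpha on the 7th day, nAChRbeta1 on the 2nd, and nAChRbeta1, 5-HT1A and Eaat2 at 12 hrs. Where a count or direction changed, the cause was not tested. Ratios on 4 arrays or fewer and missing spots limit all of these values.

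In the other reading of the swapped arrays, the turned means became, at 12 hrs, -0.0196 for nAChRbeta1, 0.10 for 5-HT1A and 0.097 for Eaat2, on the 2nd day -0.20 for nAChRbeta1, and on the 7th day -0.19 for GluClalpha, and the deposited means became 0.32, -0.15 and -0.29, 0.14, and 0.32 for the same genes and times. Counts of features past the threshold became 1 (0 turned) and 0 (1 as deposited) for the 2nd day, and 29 (0 turned) and 0 (29 as deposited) for the 7th. With the dye coefficient they were 976 turned and 1541 as deposited on the 2nd day, and as deposited 9 for the 7th. With arrays centred or centred and scaled, the deposited counts of the 2nd and 7th day were 0, GluClalpha had a 7th day mean of 0.020 and 0.0101, nAChRbeta1 had 0.11 on the 2nd day's forward arrays, and the 2nd day minus 12 hrs was 0.053 for 5-HT1A and 0.046 for Eaat2, with 1 feature called for the 7th day minus 12 hrs (0 otherwise, and 5 as deposited).

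With the first spot alone, GluClalpha at 12 hrs turned had 0.0147, and counts were 0 for the 2nd day as deposited and 1 for the 7th turned. With the second spot alone, nAChRbeta1 at 12 hrs as deposited had 0.0063, and counts were 58 on the forward arrays of 12 hrs (107 otherwise), 0 on the 2nd day as deposited, and 3 turned and 4 on the forward arrays of the 7th day. Averaged per gene, the forward arrays of 12 hrs gave 58. In 1 fit over the 6 forward arrays they gave 12, and those of the 2nd day 1029 (2022 otherwise). With neighbours subtracted, counts on the forward arrays were 2 for 12 hrs and 235 for the 2nd day, and 0 as deposited for the 2nd and 7th day. In that setting GluClalpha had 0.025 at 12 hrs and -0.12 on the 7th day turned, nAChRbeta1, 5-HT1A and 5-HT2A had 0.053, -0.054 and 0.14 as deposited at 12 hrs, 5-HT2A and Eaat2 had 0.0177 and 0.081 on the 2nd day as deposited, and on the forward arrays Eaat2 had 0.10 at 12 hrs, and nAChRbeta1, Nmdar1 and Eaat2 had 0.18, -0.098 and 0.0096 on the 2nd day. As deposited, features with a value on at least 2 arrays gave 0 for the 2nd and 69 for the 7th day, those on all 4 arrays 5 and 3, and SAM 2, 154 and 1 for the 3 times in order.

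With a replicate block 0 features passed for the 2nd day minus 12 hrs, as without it, and the 5 genes tested there had adjusted p-values from 0.796 to 0.924. For the 7th day minus the 2nd day 0 features passed with the block (1 without it), and no other call changed. On the forward arrays alone, 2 passed for the 2nd day minus 12 hrs and 0 for the 7th day minus the 2nd day. Leaving out 1 array, counts ranged at 12 hrs from 0 to 61 turned, 0 to 9 as deposited and 0 to 1 on the forward arrays, on the 2nd day from 0 to 65, 0 to 114 and 17 to 57, and on the 7th day from 0 to 31, 6 to 93 and 0 to 257. They ranged from 0 to 2 for the 7th day minus 12 hrs and from 0 to 50 for the 7th day minus the 2nd day. GluClalpha then ranged from -0.11 to 0.16 at 12 hrs turned, from -0.52 to 0.0975 on the forward arrays of 12 hrs, from -0.38 to 0.084 on the 7th day as deposited and from -0.40 to 0.0066 for the 2nd day minus 12 hrs. At 12 hrs as deposited 5-HT2A ranged from -0.11 to 0.048, Eaat2 from -0.073 to 0.21 and nAChRbeta1 from -0.19 to 0.091. 5-HT1A ranged from -0.24 to 0.14 on the forward arrays of 12 hrs and from -0.24 to 0.092 for the 2nd day minus 12 hrs, and nAChRbeta1 from -0.0465 to 0.21 on the 2nd day turned. Over the results of the 6 genes, 535 settings kept direction and call, 42 changed direction, 9 lost a call and 8 gained one.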
